A study of Drosophila melanogaster with 4 samples.

Results

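The ecdysone receptor and the transcription factors that act below it were followed in the fat body of fruit fly larvae. The list held 10 genes: EcR, usp, br, Eip74EF, Eip75B, Eip78C, Hr3, Hr4, ftz-f1 and Eip93F. A gene was taken where the platform's probe-to-gene table gave a row of the value table its symbol alone, which held for 8 of the 10 genes, among 13402 genes tested in all. Eip74EF and Eip75B had no such row and were not analysed here.

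The study compared 4 arrays, 2 from larvae fed palm fruit juice (PFJ) and 2 from controls, all of the white-eyed laboratory strain w1118. PFJ larvae ate a semi-purified diet with 4 ml of the juice, an extract rich in phenolic compounds, whose phenolic content the labels state, in gallic acid equivalents, as 19000 mg per kg diet or 0.86 mg per kcal. Control larvae ate the semi-purified diet alone. In both groups feeding began at the egg stage and lasted 5 days, and each array carried fat body RNA pooled from 10 larvae. The sex of the larvae and a finer stage than larva were not given in the labels. All values are log2 RMA intensities, on which a difference of 1 unit is a 2-fold difference, and each value stands for a whole pool. The labels do not say whether the pools came from separate cultures, so p-values measure the spread between these pools alone.

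Ecdysone is the steroid hormone that times the moults and metamorphosis of insects. Its active form binds a dimer of the nuclear receptors EcR and Ultraspiracle, which switches on a small set of early genes. The early gene products, together with the receptor, then act on early-late and prepupal regulators, and these carry the tissue from larval feeding to wandering and pupariation. In the larval fat body the hormone is known to induce secreted protein genes such as Fbp1, and later to drive remodelling of the tissue. The cascade genes therefore serve as marks of developmental time, and the comparison asked whether they differed between larvae fed PFJ and controls.

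Of 10 measured fat body markers, 9 lay above the array median in each of the 4 arrays, and Yp1, a yolk protein gene, lay below it in each. Lsp2, a larval storage protein gene, read 12.22 and 12.24 in PFJ larvae, against 12.27 and 12.32 in control larvae. The lipoprotein gene apolpp read 10.7 and 11.1 in PFJ larvae, against 10.5 and 10.4 in control larvae. Markers of other organs varied between pools. The mean of 10 midgut genes was 6.72 and 7.53 in PFJ replicates 1 and 2, against 6.12 and 7.37 in control replicates 1 and 2. The mean of 14 testis genes was 4.62 and 3.86 in PFJ larvae, against 4.89 and 2.63 in control larvae, and 0 of the 14 lay above the array median in control replicate 2. The 2 PFJ arrays were closer to each other than the 2 control arrays, with a Pearson correlation across genes of 0.961 against 0.910 (genes are not independent replicates). The PFJ arrays lay over 2-fold apart in 756 genes and the control arrays in 1324. The closest pair crossed the diets, PFJ replicate 1 and control replicate 1, at 0.968 and 621 genes. Control replicate 2 stood apart on the first principal component (63.8% of the variance).

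None of the 8 receptor and cascade genes differed between PFJ and control larvae beyond the spread of the pools. By limma with Benjamini-Hochberg adjustment over all genes, 0 of 8 passed an adjusted p of 0.05, as did 0 of the 13402 genes (0%). At an unadjusted p of 0.05 the count was 0 of 8, where 373 of all genes (2.78%) passed. In 0 of 8 genes did both PFJ arrays lie on one side of both control arrays, a pattern that 28.6% of all genes showed. The gap between the control arrays exceeded the mean difference between the diets in 8 of 8 members, against 63.3% of all genes. The unadjusted p-values ran from 0.240 for Hr4 to 0.849 for EcR. In bulk tissue, fewer cells of a type and less RNA per cell cannot be told apart.

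The differences, PFJ minus control, were below 0 in 5 members and above 0 in 3, with a median of -0.24, against a median of 0.01 over all genes. With quantile normalisation repeated br turned, which left 4 on either side. All 8 members had a mean level of at least 5. Over the 4424 genes at or above that level the median was -0.11, and 64.0% of them had a difference below 0. The median over the members was -0.05 without control replicate 1 and 0.02 without PFJ replicate 2. An exact permutation test of 2 arrays against 2 cannot give a two-sided p under 0.333.

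**Figure D1:**
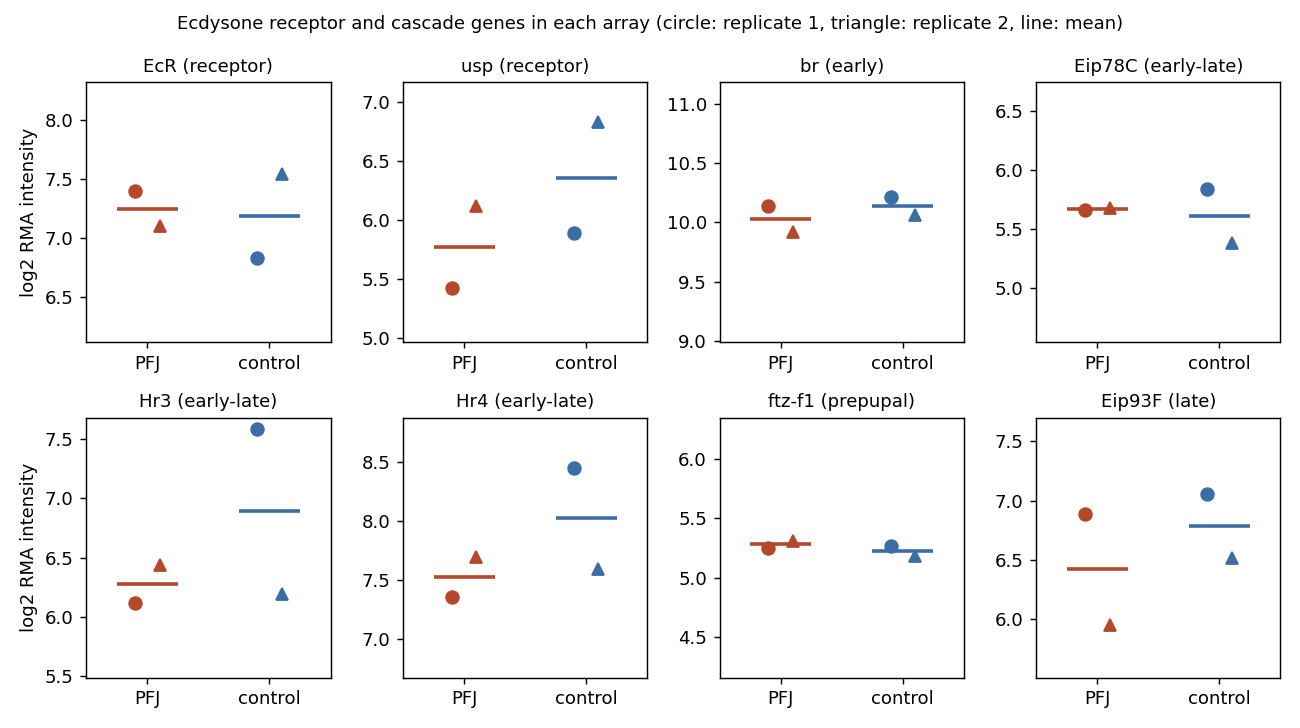
Log2 RMA intensity of the 8 measured genes in PFJ and control arrays, with replicate 1 as a circle, replicate 2 as a triangle and the group mean as a line. Each panel spans the same number of log2 units. PFJ and control arrays overlap in 8 of 8 panels, and the widest gaps are those of Hr3, at 7.59 and 6.19 in control larvae, and of Eip93F and usp.

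The 2 receptor genes did not share a pattern over the arrays. EcR, which encodes the hormone-binding partner of the dimer, read 7.40 in PFJ replicate 1 and 7.10 in PFJ replicate 2, against 6.83 in control replicate 1 and 7.54 in control replicate 2. Both PFJ pools thus lay between the control pools. The difference was 0.06 (SE 0.31), with a 95% interval from -0.81 to 0.93. Leaving out control replicate 1 gave -0.29, leaving out control replicate 2 gave 0.42 and leaving out PFJ replicate 1 gave -0.09, so the sign changed with the pools kept.

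Ultraspiracle, the partner of EcR and the fly counterpart of the vertebrate RXR receptors, is encoded by usp. This gene read 5.42 and 6.12 in PFJ larvae, against 5.89 and 6.82 in control larvae. PFJ replicate 1 was the lowest array and control replicate 2 the highest, and the other two arrays lay between them. The difference was -0.58 (SE 0.44), with an interval from -1.81 to 0.64. It was -1.05 without control replicate 1 and -0.12 without control replicate 2. A further row, which the annotation gives to usp and Actn together, was left out of the test because it cannot be credited to usp alone. It read 7.31 and 7.84 in PFJ larvae, against 7.28 and 7.40 in control larvae, and was highest in PFJ replicate 2.

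Of the early genes, br was measured. It encodes the Broad-Complex family of zinc finger proteins, a regulator of the passage from larva to pupa. It read 10.1 and 9.92 in PFJ larvae, against 10.2 and 10.1 in control larvae, a range of 0.30 over the 4 arrays. The difference was -0.11 (SE 0.18), with an interval from -0.62 to 0.40. All 4 pools thus lay within a 1.23-fold band for this gene. The array gives 1 value for the gene, so the Broad isoforms, which follow one another in development, were not separated.

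The early-late genes Hr3, Hr4 and Eip78C were each highest in control replicate 1. Hr3 encodes a nuclear receptor that activates ftz-f1 and represses early genes at the onset of metamorphosis. It read 6.12 and 6.44 in PFJ larvae, against 7.59 and 6.19 in control larvae. Control replicate 1 stood 1.15 above the next array, a 2.22-fold gap, while the other 3 arrays lay within 0.32 of each other. Of all genes, 94 (0.701%) were highest in control replicate 1 by at least that gap. The difference for Hr3 was -0.61 (SE 0.53), the widest interval of any member, from -2.08 to 0.85.

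Hr4, another nuclear receptor of the cascade with a known part in ending steroid pulses in the gland that makes ecdysone, repeated this order at a smaller size. It read 7.36 and 7.69 in PFJ larvae, against 8.45 and 7.59 in control larvae. Control replicate 1 was 0.76 above the next array, a gap that 2.36% of all genes equalled or passed in the same array. A second row for Hr4, dimmer on average and therefore not the one tested, read 7.24 and 6.88 in PFJ larvae, against 7.94 and 6.75 in control larvae. Both rows were thus highest in control replicate 1, the second by 0.70. The order of the other arrays differed between the rows. The tested row was lowest in PFJ replicate 1 and the second row in control replicate 2. The tested row differed by -0.50 (SE 0.36), with an interval from -1.49 to 0.50.

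Both differences rested on control replicate 1. Without that array the difference was 0.08 for Hr3 and -0.07 for Hr4. Without control replicate 2, when control replicate 1 stood alone for its group, it was -1.31 for Hr3 and -0.92 for Hr4. The unadjusted limma p was then 0.0125 and 0.0368, at an adjusted p of 1 for each, in a fit where 2.75% of all genes passed an unadjusted p of 0.05 with PFJ below control.

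Eip78C encodes a nuclear receptor related to E75. It read 5.66 and 5.68 in PFJ larvae, against 5.84 and 5.39 in control larvae. The PFJ pools were 0.017 apart and lay between the control pools, which were 0.46 apart. The difference was 0.06 (SE 0.22), with an interval from -0.56 to 0.68, and it was -0.17 without control replicate 2.

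The prepupal and late regulators gave the narrowest range of the 8 members and one of the wide ones. The nuclear receptor gene ftz-f1 is switched on in the mid-prepupa, when the hormone has fallen, and prepares tissues for the next pulse. It read 5.25 and 5.31 in PFJ larvae, against 5.26 and 5.18 in control larvae, a range of 0.13. The difference was 0.06 (SE 0.16), with an interval from -0.39 to 0.50. No array stood apart for this gene, including control replicate 1, where its known activator Hr3 was highest.

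Eip93F encodes a DNA-binding protein that specifies adult development and the death or remodelling of larval tissues, the fat body among them. It read 6.89 and 5.95 in PFJ larvae, against 7.05 and 6.52 in control larvae. PFJ replicate 2 was the lowest array, 0.57 below the next. The difference was -0.37 (SE 0.41), with an interval from -1.51 to 0.78, and it was -0.84 without PFJ replicate 1 and 0.10 without PFJ replicate 2.

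**Figure D2:**
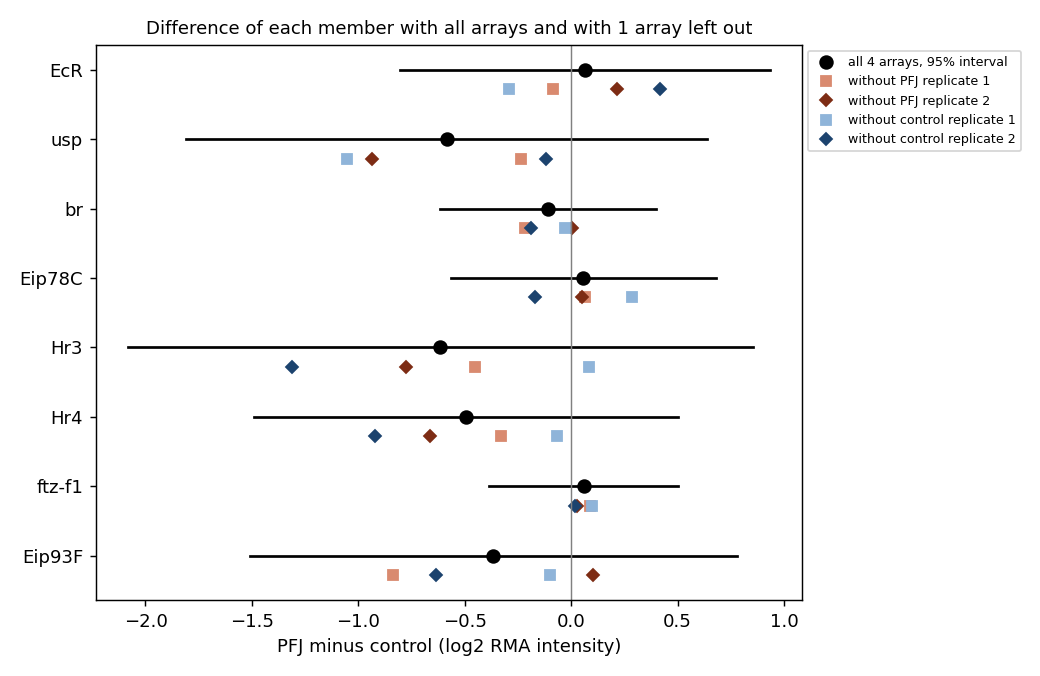
Difference of each member, PFJ minus control, in log2 RMA intensity. The black point and bar give the estimate from all 4 arrays with its 95% interval, and the coloured marks give the estimate with 1 array left out. Every bar crosses 0, and for Hr3 the estimates run from -1.31 without control replicate 2 to 0.08 without control replicate 1.

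The intervals set bounds of unequal size. With all 4 arrays, for EcR, br, Eip78C and ftz-f1 the 95% interval lay inside a 2-fold difference in either direction. For usp, Hr3, Hr4 and Eip93F it reached past a 2-fold difference with PFJ below control, and for 0 members did it reach one with PFJ above control. For br and ftz-f1 the interval lay inside a 2-fold difference in 13 of 13 fits, the 12 alternatives included. For EcR it did so in 7 of 13 and for Eip78C in 11 of 13. The upper bound for EcR reached 1.07 with quantile normalisation repeated and 1.70 without PFJ replicate 2, and that for Hr3 reached 2.24 without PFJ replicate 1. These intervals are not adjusted for the number of genes.

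The range of the members over the 4 arrays had a median of 0.90, against 0.52 over all genes and 0.66 over the genes with a mean level of at least 5. The range exceeded 1 for 4 of 8 members, namely usp, Hr3, Hr4 and Eip93F, against 18.5% of all genes and 26.7% of the brighter ones. Control replicate 1 gave the highest value in 5 members (br, Eip78C, Hr3, Hr4 and Eip93F), against 21.5% of all genes, and the lowest in EcR. Control replicate 2 gave the highest value in EcR and usp. EcR and Hr3 therefore had opposite extremes in control replicate 1.

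**Figure D3:**
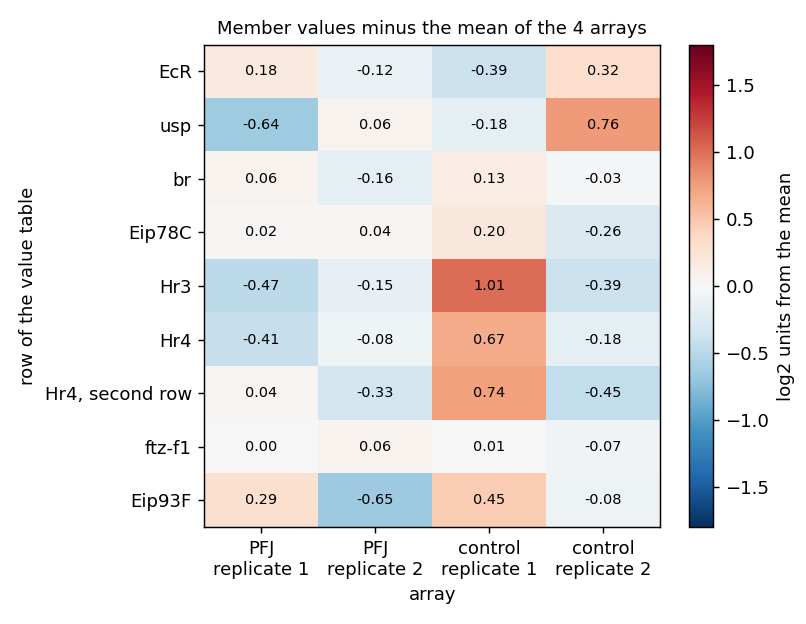
Each row of the value table that carries a member's symbol alone, as its value in an array minus the mean of the 4 arrays, in log2 units. Hr3 and both rows of Hr4 are highest in control replicate 1, where EcR is lowest, and usp is highest in control replicate 2.

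The likeness of the patterns was measured as the root mean square distance between values centred on each gene's mean over the 4 arrays. The tested row stood for each gene, so the second row of Hr4 was left out. Among members with a range above 1, Hr3 and Hr4 were the nearest pair, at a distance of 0.20 log2 units. EcR and Hr3 were the most distant of all pairs, at 0.85. Over all genes, ord, betaNACtes6 and CG10154 lay nearest to Hr3, at 0.12, 0.12 and 0.15. Each of these was highest in control replicate 1, and ord, a gene of meiotic chromosome cohesion, read 2.93 and 2.98 in PFJ larvae, against 4.11 and 2.74 in control larvae. CG7848, CG15014 and BTBD9 lay nearest to Hr4, at 0.075 to 0.083. The genes nearest to usp were veil, CG18528 and Mvl, a metal ion transporter gene, at 0.038 to 0.047, and those nearest to Eip93F were Ing5, ND-51L2 and CG33937, at 0.074 to 0.085. These distances rest on 4 arrays and were not tested.

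Markers of other tissues also differed between the pools. Control replicate 1 was the lowest array for 8 of 10 midgut genes, 4 of 9 hemocyte genes, 4 of 6 prothoracic gland genes, 4 of 7 neuron genes and 3 of 6 imaginal disc genes, and the highest for 9 of 14 testis genes. Control replicate 2 was the lowest for 13 of 14 testis genes and 5 of 6 muscle genes. Over all genes, control replicate 1 was the lowest array for 25.2% and the highest for 21.5%, and control replicate 2 the lowest for 29.0%. Muscle genes had a mean of 6.60 and 7.30 in PFJ larvae, against 6.88 and 5.80 in control larvae. Imaginal disc genes had a mean of 6.18 and 6.01 in PFJ larvae, against 5.99 and 6.36 in control larvae. The hemocyte mean was 4.30 and 4.59 in PFJ larvae, against 4.08 and 4.43 in control larvae, and the neuron mean was 4.96 and 4.87, against 4.79 and 5.13. The prothoracic gland, which makes ecdysone, gave a mean of 3.30 and 3.51 in PFJ larvae, against 3.06 and 3.68 in control larvae. Between the diets, 3 of 9 hemocyte genes were higher with PFJ at an unadjusted p of 0.05, against 1.74% of all genes. These were PPO1 at 1.26, PPO2 at 0.78 and Hml at 0.68. The hemocyte genes did not move together, with 5 above 0, 4 below 0 and a median of 0.08. NimC1 and crq were each at -0.67. The threshold of 0.05 was also passed by the midgut genes LManV, at 2.42, and Mur29B, at -0.76, and by the fat body gene FASN1, at 1.23. The part of these tissues in the values of EcR, usp, Hr3 and Hr4 was not tested.

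The list of ecdysone synthesis, uptake and inactivation had 12 measured genes among 15 listed names, in which EcI and Oatp74D name the same gene. A mean of at least 4 was held by 6 of the 12. The 12 included the 6 measured prothoracic gland markers, and the hormone itself was not measured. Of the 12, 0 passed an unadjusted p of 0.05 in either direction, and the median difference was -0.01. That median was -0.23 without control replicate 1 and 0.24 without control replicate 2. Oatp74D, the importer that carries ecdysone into cells, read 7.02 and 6.97 in PFJ larvae, against 6.84 and 6.85 in control larvae, a difference of 0.15 (SE 0.16). Cyp18a1, the cytochrome P450 that inactivates the hormone, differed by -0.20 (SE 0.16), dib by 0.18 (SE 0.22) and the sterol transport gene Npc1a by -0.20 (SE 0.34). The groups did not overlap for 2 of the 12, Oatp74D and Cyp18a1, against 28.6% of all genes.

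The list of receptor cofactors also took in other regulators, among them vri, Blimp-1, DopEcR and Kr-h1. It gave 0 of 11 analysed genes at an unadjusted p of 0.05, with a median of -0.08. That median was 0.015 with quantile normalisation repeated and 0.010 without PFJ replicate 2. The smallest p belonged to rig, a receptor-interacting protein gene, at -0.44 (SE 0.25), with 4.54 and 4.98 in PFJ larvae, against 5.03 and 5.38 in control larvae. The chromatin remodelling gene E(bx) differed by -0.12 (SE 0.18), bon by 0.09 (SE 0.16) and Kr-h1, a target of juvenile hormone, by -0.10 (SE 0.17).

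Nuclear receptor genes outside the list gave differences below 0 in 13 of 13 measured genes, with a median of -0.15, against 48.1% of all genes below 0. Only 6 of the 13 had a mean of at least 4. Of these, 6 lay below 0, with a median of -0.24, against 59.9% of all genes at that level. None passed, with 0 of 13 at an unadjusted p of 0.05. The count below 0 was 13 of 13 with quantile normalisation repeated and with median centring, and 11 of 13 without PFJ replicate 2. Both PFJ arrays lay below both control arrays in 7 of 13, against 13.1% of all genes. Control replicate 2 was the highest array for 10 of 13. Without control replicate 1, 1 of 13 passed an unadjusted p of 0.05 (ERR, at -0.80). The largest of these differences was that of tll, at -0.52 (SE 0.20), with 3.65 and 3.88 in PFJ larvae, against 4.17 and 4.41 in control larvae. Hr78 differed by -0.45 (SE 0.25), kni by -0.25 (SE 0.16) and Hr39, itself an ecdysone-responsive receptor gene, by -0.23 (SE 0.17).

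Among targets, the ecdysone-induced effector list had 7 measured genes among 15 listed names, in which ImpL3 and Ldh name the same gene. It gave 0 genes at an unadjusted p of 0.05. ImpE2, an ecdysone-inducible gene of imaginal discs, had the smallest p, at -0.46 (SE 0.20), with 10.1 and 10.4 in PFJ larvae, against 10.7 in each control pool. ImpE3 differed by -0.38 (SE 0.20), ImpL2, which encodes a secreted binding protein of insulin-like peptides, by -0.30 (SE 0.24) and the caspase gene Dronc by 0.30 (SE 0.28).

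Fat body genes that are active late in the last larval instar, when feeding ends, had 4 measured members of 7, and 1 was higher at an unadjusted p of 0.05, against 1.74% of all genes. That gene was Obp99b, an odorant-binding protein gene, with 11.6 and 11.2 in PFJ larvae, against 10.4 and 9.93 in control larvae. The difference was 1.26 (SE 0.27), at an adjusted p of 1. Without PFJ replicate 1 it was 1.04, at an unadjusted limma p of 0.0522, which left 0 of 4 genes past the threshold. Fbp1, an ecdysone-induced receptor gene for the storage proteins, read 10.2 and 10.1 in PFJ larvae, against 10.1 and 9.99 in control larvae, a difference of 0.12 (SE 0.16). Fbp2 differed by 0.38 (SE 0.18) and Lsp2 by -0.07 (SE 0.16).

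The listed prepupal cuticle and late puff genes were mostly dim in these fat body pools, which was not tested as a mark of stage. The 3 prepupal cuticle genes that FTZ-F1 is known to regulate, Edg78E, Edg84A and Edg91, lay below the array median in each of the 4 arrays, and their differences were 0.11, 0.04 and -0.21. The late puff genes, of the Eig71E family, gave differences above 0 in 8 of 8 measured genes, against 6959 of all 13402 genes. Their median was 0.20, and 0 passed an unadjusted p of 0.05. Only 1 of the 8 had a mean of at least 4. Of all genes at that level 59.9% had a difference below 0, against 48.1% of genes at any level. Differences above 0 were thus more common among dimmer genes, which most of the 8 were. With quantile normalisation repeated, and also without control replicate 2, 6 of the 8 stayed above 0. The count at an unadjusted p of 0.05 was 2, Eig71Ea and Eig71Ed, without PFJ replicate 1, and 1, Eig71Ef, with an intensity trend in the prior variance. At most 2 of the 8 lay above the array median in any array. In 4 of the 8 each PFJ array exceeded each control array, against 15.5% of all genes, a share not taken for dim genes alone. Eig71Ed read 3.38 and 4.49 in PFJ larvae, against 3.03 and 2.62 in control larvae, a difference of 1.11 (SE 0.45). Eig71Ea read 4.49 and 6.02 in PFJ larvae, against 4.69 and 4.14 in control larvae, a difference of 0.84 (SE 0.59). PFJ replicate 2 stood apart in both, and control replicate 2 was the lowest array for 7 of the 8. The remaining named members, Eig71Ef and Eig71Ei, differed by 0.45 (SE 0.17) and 0.22 (SE 0.17).

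Salivary glue genes, which the hormone turns on midway through the last larval instar in another organ, lay above the array median in 9 and 7 of 11 genes in PFJ larvae, against 8 of 11 in each control pool, and 0 of 11 passed an unadjusted p of 0.05. Sgs3 read 11.1 and 11.0 in PFJ larvae, against 10.7 and 10.5 in control larvae, a difference of 0.46 (SE 0.20). Control replicate 1 was the lowest array for 6 of 11, against 25.2% of all genes. Control replicate 2 was the highest for 6 of 11, against 30.3% of all genes. The control pools were farthest apart for Sgs1, named after its values were seen, which read 8.48 and 8.27 in PFJ larvae, against 6.26 and 8.94 in control larvae. Without control replicate 2, Sgs1 passed an unadjusted p of 0.05, as did Sgs5 without control replicate 1 and ng3 without PFJ replicate 2. Sgs4 differed by -0.31 (SE 0.17), ng4 by 0.41 (SE 0.24) and ng3 by 0.61 (SE 0.44). In control replicate 1, 6 glue genes had their lowest value, as did EcR and 8 of 10 midgut genes, and Hr3 and Hr4 had their highest. Lsp2 and ftz-f1 stayed within 0.10 and 0.13 over the 4 pools. The other measured genes of the list that holds Lsp2 ranged more widely, Fbp1 by 0.22, Fbp2 by 0.56 and Obp99b by 1.70. Lsp2, at 12.22 to 12.32, also lay close to the highest values of the arrays, 12.54 to 12.73. A difference in stage between the pools was not tested.

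**Figure D4:**
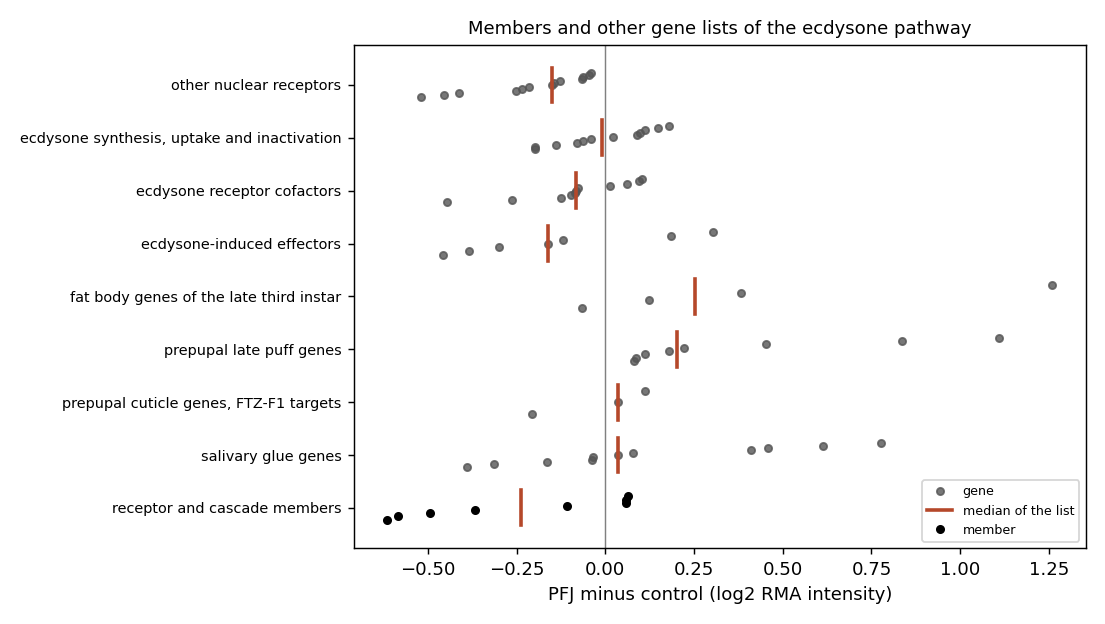
Differences, PFJ minus control, in log2 RMA intensity, for genes of the ecdysone pathway lists (grey) and for the 8 measured receptor and cascade members (black), with the median of each list as a red bar. The other nuclear receptors lie below 0 in 13 of 13 genes and the prepupal late puff genes above 0 in 8 of 8. Of all genes, 48.1% lie below 0, and 59.9% of those with a mean of at least 4. Most of the late puff genes were dimmer than that. In the limma fit 1 gene shown, Obp99b, had an unadjusted p under 0.05.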

How the data were processed

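Per the submitters' processing notes, the deposited log2 intensities came from RMA, run by the authors in Affymetrix Expression Console 1.4.0.38. RMA corrects background, equalises the arrays' probe distributions and summarises probes per transcript cluster. It hides a shift shared by most genes. The genome build was not given in the sources used here, and no detection call was made. Of 16322 rows, 13441 had 1 symbol. For 37 genes with several rows the one with the highest mean was kept, which left 13402 genes.

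PFJ was compared with control in R 4.3.3 with limma 3.58.1 (lmFit, eBayes, two-sided, no covariate). The procedure was also run on data simulated from limma's own variance model, so that run did not test the model on these arrays. P-values were adjusted by Benjamini-Hochberg over all genes. SEs are moderated, with 4.01 degrees of freedom, and the number of arrays limits the precision. All members were named. For each pathway list, up to 4 genes with the smallest p were named (tissue markers were picked after their values were seen), and for each member with a range above 1, the 3 nearest genes. Members and lists were chosen with earlier results of these data known, so no list was tested as a set. Listed names without a row of 1 symbol in the same spelling were not analysed here. The listed cofactor Alien was left out because its row is spelled alien. That row differed by -0.20 (SE 0.19). Alternatives covered normalisation, dim genes, rows, the variance prior, the replicate number and each array.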

Additional observations from a re-analysis of the deposited data

How the results depend on the processing

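Under the 12 alternatives 0 genes passed adjustment, members included. Of 96 member values, 89 kept their sign. With quantile normalisation repeated br was 0.015. With 1 array left out, where the lone array is assumed to vary like the other group, the range was -0.29 to 0.42 for EcR, -0.22 to 0.0030 for br, -0.17 to 0.29 for Eip78C, -1.31 to 0.084 for Hr3 and -0.84 to 0.10 for Eip93F. The members' median ran from -0.23 to 0.016 and the number of members at an unadjusted p of 0.05 from 0 to 2. With the replicate number as a block, that number was 1 (usp, unadjusted limma p 0.0443), and 547 genes passed it in place of 373. Deviations of same-numbered arrays correlated at 0.337, but with 2 pairs and no label for a shared batch the arrays share only a number. Genes at an unadjusted p of 0.05 numbered 945 without control replicate 1, 566 without PFJ replicate 2, and 192 and 142 among genes with a mean of at least 4 and 5, where fewer genes were tested. The cause of the other changes was not tested.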
